A study of Homo sapiens with 6 samples.

Results

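The genes described here encode the cyclins and cyclin-dependent kinases (CDKs) that carry a cell through G1 into S phase, with the phosphatase and the ubiquitin ligase subunits that switch them on. The 10 members were taken by gene name (CCND1, CCND3, CDK4, CDK6, CCNE1, CCNE2, CDK2, CDC25A, SKP2 and CKS1B), and all 10 were found among the 14034 genes of the table. They were measured in JHH-4, an established hepatocellular carcinoma line that the labels call epithelial-like. Of its RNA, 3 libraries came from cells overexpressing hsa-miR-885-5p through a plasmid carrying the primary microRNA, and 3 from Control cells labelled wild type. The design text calls the replicates technical, so p-values here measure the spread between such libraries, and it does not say what the Control cells received. The microRNA's own gene was not analysed here, so its overexpression was not checked.

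In G1, D-type cyclins bind CDK4 and CDK6 and start the phosphorylation of the retinoblastoma pocket protein. E2F factors are then released and raise genes for S phase, cyclin E among them, and cyclin E with CDK2 completes the phosphorylation. CDC25A removes the inhibitory phosphates from CDK2, while SKP2 and its cofactor CKS1B mark the inhibitor p27 for destruction. CCND1 lies in a region that is amplified in some hepatocellular carcinomas.

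The microRNA itself is shown first, because its seed (bases 2 to 8, in capitals) sets which transcripts it can pair with. The sequence is from RefSeq (GRCh38.p14, chr3:10394531-10394552, minus strand):

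hsa-miR-885-5p: uCCAUUACacuacccugccucu

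The longest annotated 3′ UTR of each member (GENCODE 29, GRCh38) was searched, on the transcript strand, for the letters that pair with this seed. TAATGG is the shortest match (6mer), TAATGGA adds an A after it (7mer-A1), GTAATGG extends the pairing at its other end (7mer-m8), and GTAATGGA does both (8mer). A gene's longer match was counted in place of the shorter one inside it. Of the 10 members, 4 held a match and 6 held none (CCNE1, CCNE2, CDK2, CDC25A, SKP2 and CKS1B). The 4 matches are printed with the paired bases in capitals and with up to 11 bases on each side. They lie at chr7:92611543-92611549 (CDK6, minus strand), chr11:69652364-69652370 (CCND1, plus strand), chr6:41935263-41935268 (CCND3, minus strand) and chr12:57748238-57748243 (CDK4, minus strand).

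CDK6 (7mer-m8): tattaaagtcaGTAATGGccattattgtt
CCND1 (7mer-A1): gggcagttttcTAATGGAatggtttggga
CCND3 (6mer): ttaagaggacaTAATGGggtcctggcca
CDK4 (6mer): aaacaaagaaaTAATGGtcttttttttt

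In CDK6 the match begins 3591 bases into its UTR, which is 10219 bases long. Over 12308 tested genes with an annotated 3′ UTR, 8.01% held a 7mer-m8 or 8mer, 11.3% a 7mer-A1 and 30.4% any of the 4 words, with no allowance for UTR length. A match describes the letters of the UTR and does not show pairing, and its part in the changes below was not tested.

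All 10 members were lower with miR-885-5p, and for each of them the 3 miR-885-5p libraries lay below the 3 Control libraries in CPM (counts scaled to library size, with TMM factors). In edgeR's quasi-likelihood test with Benjamini-Hochberg adjustment over all 14034 genes, each of the 10 fell past an adjusted p of 0.05. By the same rule 26.5% of all genes were lower and 26.3% higher, and 30.3% of all genes were lower without overlap of the groups. The median log2 fold change was -0.54 over the 10 members and 0.00 over all genes. The members were chosen with results of these data known, so these counts describe the set. In RNA from whole cultures, fewer cells in a phase and less RNA per cell cannot be told apart.

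**Figure D1:**
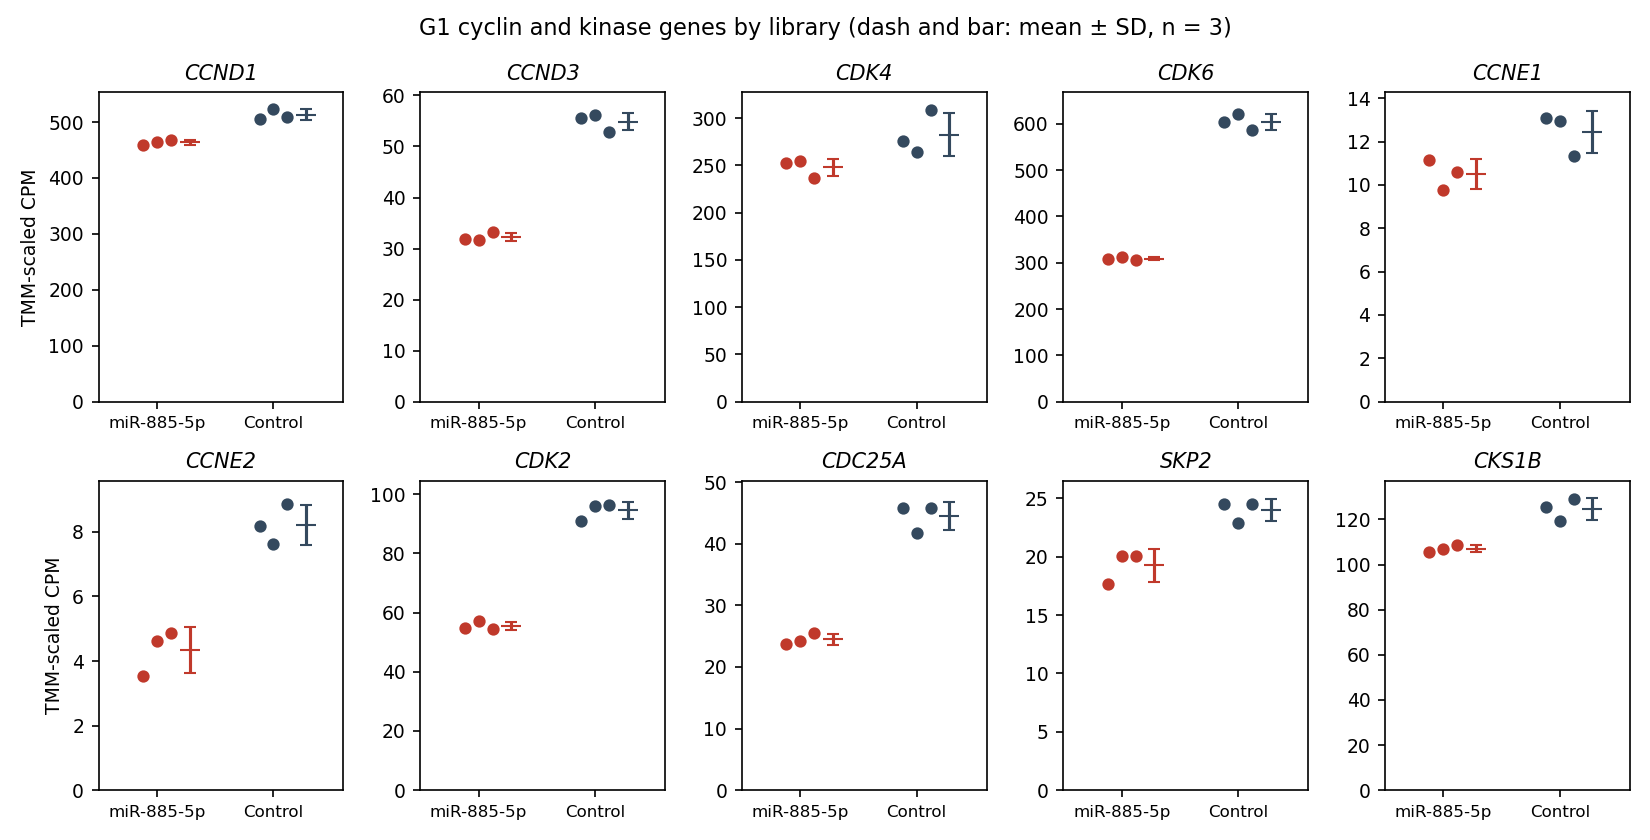
TMM-scaled CPM (vertical axes, from 0) of each member in each library, with miR-885-5p left of Control; points are libraries, and the dash with its bar is the mean ± SD of 3. In all 10 panels the miR-885-5p points lie below the Control points, with a wide separation for CDK6, CCND3, CDK2 and CDC25A and a narrow gap for CCNE1 and CDK4.

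The changes fell into 2 ranges, a division made after the values were seen. CDK6, CCNE2, CDC25A, CDK2 and CCND3 had log2 fold changes from -0.97 to -0.77, and SKP2, CCNE1, CKS1B, CDK4 and CCND1 from -0.32 to -0.15. Of all genes, 2.54% had a lower fold change than CDK6 and 4.38% a lower one than CCND3, whereas 33.4% lay below CCND1. In edgeR's test against a 1.5-fold change, 4 members were called (CDK6, CDK2, CDC25A and CCND3), against 2.92% of all genes called lower. CCNE2 had a similar fold change but a larger error and did not pass (adjusted p = 0.0742).

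**Figure D2:**
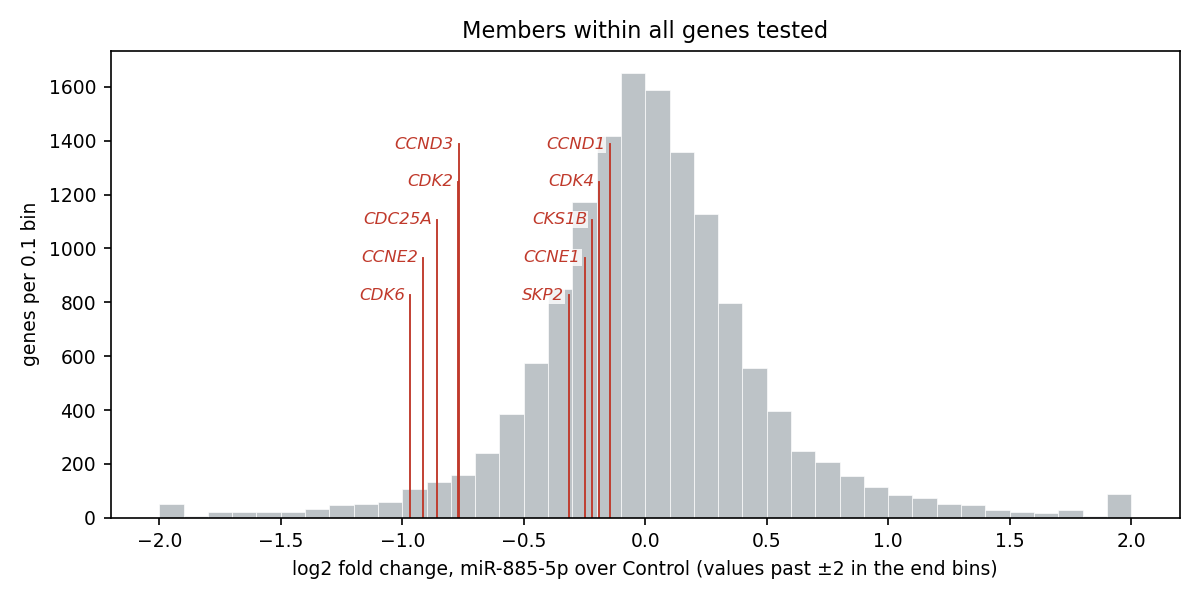
Number of genes (vertical axis) per 0.1 bin of log2 fold change, miR-885-5p over Control (horizontal axis), for all 14034 genes, with red lines at the 10 members. CDK6, CCNE2, CDC25A, CDK2 and CCND3 stand in the left tail, from -0.97 to -0.77, and the other 5 within the left shoulder of the bulk of genes.

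The D-type cyclins, the sensors of growth signals, changed by unequal amounts. CCND1 (chr11:69641087-69654474, plus strand, GRCh38), which encodes cyclin D1, had 459, 464 and 468 CPM in the 3 miR-885-5p libraries, against 505, 524 and 510 CPM in the Control libraries. The groups were separate but close, at 464 ± 4.45 and 513 ± 9.97 CPM (SD, n = 3 each), and the fall was small (log2 fold change -0.15, SE 0.03, edgeR adjusted p = 0.00529). CCND3 (chr6:41934933-42050357, minus strand), the gene of cyclin D3, had 31.8, 31.7 and 33.2 CPM with miR-885-5p, against 55.5, 56.1 and 52.9 CPM in Control. No miR-885-5p library came above 60.5% of the Control mean (log2 fold change -0.77, SE 0.05, adjusted p = 1.95e-06). In the authors' deposited FPKM (fragments scaled to gene length and library size, which allows levels of different genes to be compared), CCND1 made up 87.3, 87.5 and 86.9% of the summed CCND1 and CCND3 level with miR-885-5p, against 81.2, 81.5 and 81.8% in Control. The share was thus 5.73 percentage points higher with miR-885-5p. Computed from counts per exonic length it was 94.5% with miR-885-5p and 91.8% in Control, a difference of 2.71 percentage points. The exact permutation test gave p = 0.1 (two-sided), the smallest value that 3 against 3 libraries allow, here and for the 2 shares below. The remaining D-type cyclin gene, CCND2, was not analysed here.

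Of the kinases that the D-type cyclins activate, CDK6 (chr7:92604921-92836594, minus strand) carried the larger fall. It had 308, 313 and 305 CPM with miR-885-5p, against 603, 621 and 587 CPM in Control. The miR-885-5p libraries stood at 50.6 to 51.8% of the Control mean, the narrowest span among the members that fell most (log2 fold change -0.97, SE 0.04, adjusted p = 8.28e-08). CDK4 (chr12:57747727-57756013, minus strand) had 252, 254 and 237 CPM with miR-885-5p, against 276, 264 and 308 CPM in Control. The lowest Control library lay close above the highest miR-885-5p library, and Control library 3 lay apart above the other Control libraries (log2 fold change -0.19, SE 0.06, adjusted p = 0.0192). Without miR-885-5p library 3 the fold change was -0.16 and the call ended (adjusted p = 0.0823), and it also ended under total-count scaling (adjusted p = 0.0769).

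Per length, CDK4 was the more abundant of the pair in both groups. CDK6 gave 15.5, 17.8 and 18.6% of the summed FPKM of CDK4 and CDK6 with miR-885-5p, against 27.6, 29.1 and 24.1% in Control. The groups did not overlap, and the means differed by -9.66 percentage points (17.3 ± 1.64% with miR-885-5p and 27.0 ± 2.57% in Control). The sum of both kinases averaged 149 ± 14.7 FPKM with miR-885-5p and 178 ± 14.9 FPKM in Control, and CCND1 plus CCND3 averaged 116 ± 1.87 FPKM with miR-885-5p and 133 ± 1.43 FPKM in Control. D-type cyclin per unit of CDK4 and CDK6 was 0.786 ± 0.0853 with miR-885-5p and 0.748 ± 0.0596 in Control, a difference smaller than the spread of either group. This ratio and these sums rest on FPKM alone and were not computed from counts. In FPKM the fall of CDK4 was smaller than in counts (log2 fold change -0.08 against -0.19). How far the ratio depends on the measure was not tested.

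**Figure D3:**
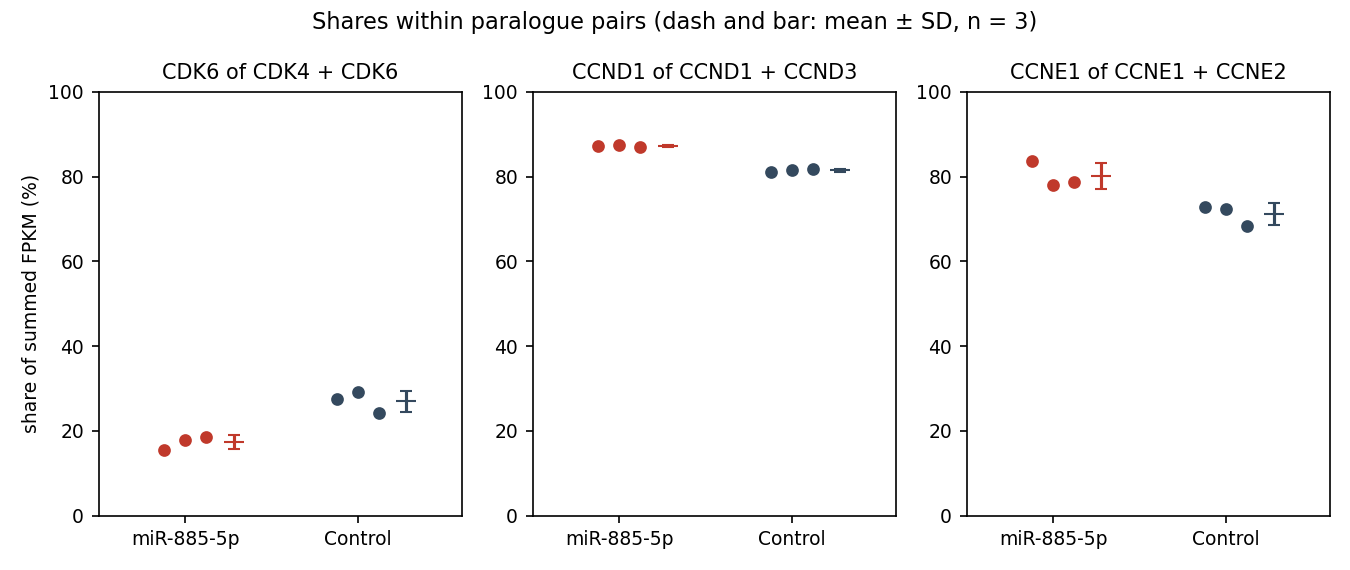
Share of the summed FPKM (percent, axes from 0 to 100) that CDK6 takes of CDK4 and CDK6, CCND1 of CCND1 and CCND3, and CCNE1 of CCNE1 and CCNE2, by library; the dash and bar are the mean ± SD of 3. With miR-885-5p the CDK6 share is lower (17.3 against 27.0%), and the CCND1 share (87.2 against 81.5%) and CCNE1 share (80.2 against 71.2%) are higher.

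Of the E-type cyclins, which bind CDK2 at the G1/S boundary, CCNE2 fell further than CCNE1. CCNE2 is the least abundant member, with 167, 267 and 255 counts in the miR-885-5p libraries and 389, 359 and 437 counts in the Control libraries. On the CPM scale these are 3.54, 4.63 and 4.87 with miR-885-5p, against 8.17, 7.61 and 8.87 in Control. MiR-885-5p library 1 was the lowest, and the highest miR-885-5p library reached 59.3% of the Control mean (log2 fold change -0.92, SE 0.14, adjusted p = 4.48e-04). CCNE1 (chr19:29811898-29824308, plus strand) had 11.1, 9.79 and 10.6 CPM with miR-885-5p, against 13.1, 12.9 and 11.3 CPM in Control. Here miR-885-5p library 1 and Control library 3 nearly met, and the change was the least secure of the set (log2 fold change -0.25, SE 0.09, adjusted p = 0.0435). Its call ended without any 1 of the miR-885-5p libraries and without Control library 1 or 2, with edgeR adjusted p-values from 0.0508 (without miR-885-5p library 1) to 0.146 (without miR-885-5p library 2). With the replicate number as a block its adjusted p was 0.0693. CCNE1 took 80.2 ± 3.17% of the summed FPKM of both genes with miR-885-5p and 71.2 ± 2.52% in Control, with no overlap.

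CDK2 (chr12:55966769-55972784, plus strand), the partner of cyclin E, had 54.9, 57.1 and 54.4 CPM with miR-885-5p, against 91.1, 96.0 and 96.5 CPM in Control. Every miR-885-5p library lay between 57.5 and 60.4% of the Control mean (log2 fold change -0.77, SE 0.04, adjusted p = 8.04e-07). The level of CDK2 per unit of summed CCNE1 and CCNE2 averaged 3.60 ± 0.264 in FPKM with miR-885-5p and 4.82 ± 0.516 in Control. The libraries of the groups did not overlap in this ratio, which rests on FPKM alone and was not computed from counts. In FPKM the fall of CDK2 was larger than in counts (log2 fold change -0.83 against -0.77). How far the ratio depends on the measure was not tested. CDC25A (chr3:48157146-48188402, minus strand), the phosphatase that activates CDK2, had 23.8, 24.2 and 25.5 CPM with miR-885-5p, against 45.7, 41.8 and 45.8 CPM in Control. All 3 miR-885-5p libraries were thus at 53.5 to 57.4% of the Control mean (log2 fold change -0.86, SE 0.06, adjusted p = 2.66e-06).

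SKP2 (chr5:36151989-36184319, plus strand), the substrate receptor that brings p27 to its ubiquitin ligase, had 17.7, 20.1 and 20.1 CPM with miR-885-5p, against 24.5, 22.9 and 24.5 CPM in Control. The fall in counts was clear of the spread (log2 fold change -0.32, SE 0.07, adjusted p = 0.00439). The authors' FPKM of the same gene did not show it, with 6.70, 5.50 and 7.72 FPKM with miR-885-5p against 6.25, 5.89 and 8.06 FPKM in Control. The FPKM groups overlapped throughout, and limma on log2(FPKM + 0.1) gave a log2 fold change of -0.02 (adjusted p = 0.923). The number of counts behind 1 FPKM of SKP2, after allowing for each library's median, varied 1.46-fold between libraries, more than in 97.3% of 11278 genes with a mean of at least 5 CPM, where the median was 1.04-fold. For CDK4 it varied 1.19-fold, and its FPKM fold change was -0.08 (adjusted p = 0.560). What made counts and FPKM differ was not tested.

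CKS1B (chr1:154974653-154979249, plus strand), the gene of the small protein that SKP2 needs to recognise p27, had 105, 107 and 109 CPM with miR-885-5p, against 126, 119 and 129 CPM in Control. The miR-885-5p libraries lay at 84.6 to 87.2% of the Control mean (log2 fold change -0.22, SE 0.04, adjusted p = 0.00141). The annotation lists 6 pseudogenes named after CKS1B, 2 after CCND3 and 1 after CDK4, none of them analysed here. The sources used here do not give how reads shared with these pseudogenes were counted.

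**Figure D4:**
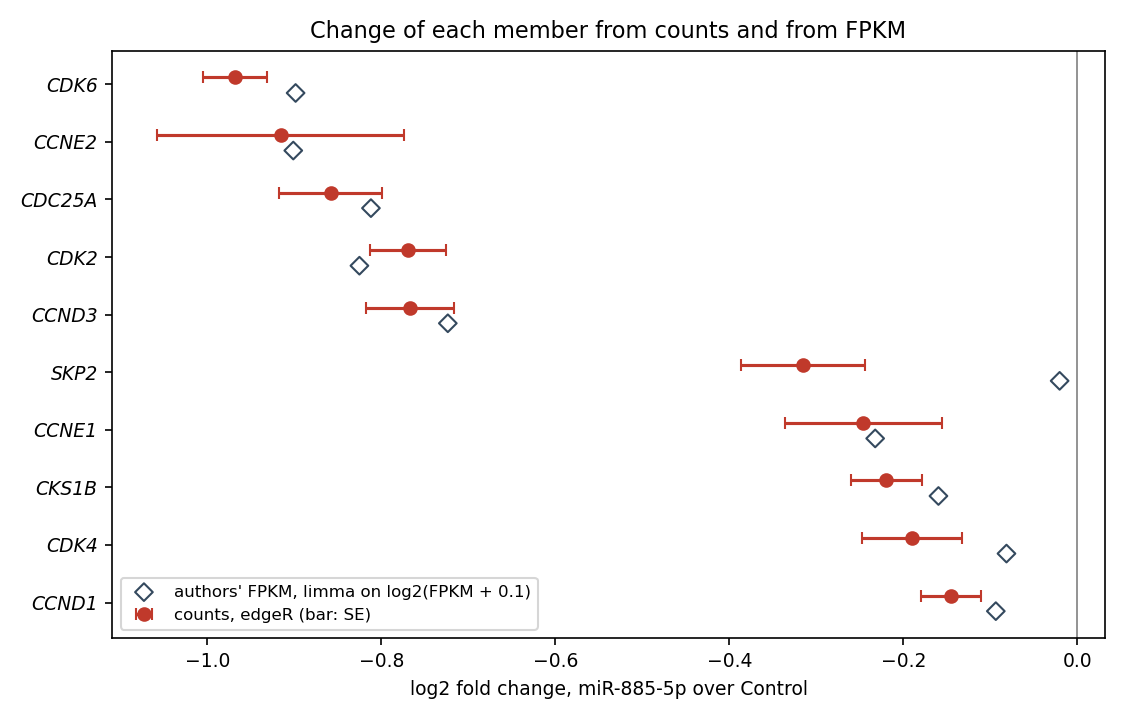
Log2 fold change, miR-885-5p over Control (horizontal axis), of each member from the counts (filled circles, edgeR, bar = SE) and from the authors' FPKM (open diamonds, limma on log2(FPKM + 0.1)). The measures lie close for the 5 members from -0.97 to -0.77, and part most for SKP2, at -0.32 from counts and -0.02 from FPKM.

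Fitted on the FPKM, 6 of the 10 members were lower past the threshold (CDK6, CCNE2, CDC25A, CDK2, CCND3 and CKS1B), against 19.1% of all genes in that fit. CCND1 (adjusted p = 0.0800 in limma), CCNE1 (0.0577), CDK4 and SKP2 did not pass. The authors' deposited table gave log2 fold changes of the same sign for all 10, from -0.97 for CDK6 to -0.15 for CCND1, with the largest p-value, 0.0256, for CCNE1.

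By level per length, CKS1B, CDK4 and CCND1 led the order in both groups, followed by CDK6, CDK2 and CCND3. In the miR-885-5p libraries CKS1B averaged 131 ± 2.74 FPKM and CDK4 123 ± 14.6 FPKM, and in Control 147 ± 7.73 and 131 ± 15.6 FPKM, so the ranges of these neighbours overlapped in both groups. CCNE2 was the lowest, at 1.24 ± 0.203 FPKM with miR-885-5p and 2.38 ± 0.119 FPKM in Control. SKP2 overlapped CDC25A with miR-885-5p (6.64 ± 1.11 and 6.41 ± 0.290 FPKM), whereas in Control it overlapped CCNE1 (6.73 ± 1.16 and 5.90 ± 0.565 FPKM) and CDC25A stood above both at 11.3 ± 0.640 FPKM. All other neighbours in the order had separate ranges.

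Some members share exonic bases with a gene on the opposite strand, and the sources used here do not give the strand setting of the counting. INTS8 overlaps 37.0% of the exonic length of CCNE2, and it had 44.4 ± 2.44 CPM with miR-885-5p and 42.5 ± 1.10 CPM in Control (log2 fold change 0.06, edgeR adjusted p = 0.391). TSPAN31 overlaps 43.2% of CDK4, and it had 38.8 ± 2.40 CPM with miR-885-5p and 31.4 ± 5.62 CPM in Control (log2 fold change 0.30, adjusted p = 0.0403). LTO1 overlaps 10.3% of CCND1 and was lower, at 15.5 CPM with miR-885-5p and 18.3 CPM in Control (log2 fold change -0.24, adjusted p = 0.0286). The antisense gene AC025162.1 overlaps 14.5% of CDK2, and its level was not analysed here. PMEL overlaps 2.29% of CDK2, and it had 1.88 CPM with miR-885-5p and 1.90 CPM in Control. The part of these overlaps in the values of CCNE2, CDK4, CCND1 and CDK2 was not tested.

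The promoters of 7 members (250 bases before to 50 after the start, RefSeq, GRCh38.p14) were searched on both strands for the E2F words TTTCCCGC, TTTCGCGC, TTTGCCGC and TTTGGCGC, since E2F factors are known to drive several of these genes. Among 35116 promoters of the same length, 3.31% held such a word. The 7 members had 10 promoters between them, and 1 of these, that of CDC25A, held a word. The promoters of CCND1, CCNE2 and CDK2 were not searched. Its promoter (chr3:48188368-48188667, minus strand) is printed with the word in capitals, which begins 44 bases before the start:

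CDC25A promoter: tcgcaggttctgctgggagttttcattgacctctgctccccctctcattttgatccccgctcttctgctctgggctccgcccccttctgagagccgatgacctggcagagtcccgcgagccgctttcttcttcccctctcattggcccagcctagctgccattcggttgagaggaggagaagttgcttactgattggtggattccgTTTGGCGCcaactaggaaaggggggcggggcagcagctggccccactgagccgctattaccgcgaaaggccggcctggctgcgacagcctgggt

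The match is a description of these letters and not evidence of binding. The promoters of CCND3, CCNE1, CDK4, CDK6, SKP2 and CKS1B held none of the 4 words in this window.

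The rest of the G1 pathway was followed in lists of genes that act on the members or downstream of them. The lists were chosen with earlier results of these data known. In the same edgeR test 26.5% of all genes were lower and 26.3% higher, the shares to set beside each list count below. Of 6 tested CDK inhibitor genes, 2 were higher and 1 lower (median log2 fold change 0.06). CDKN2B, the gene of p15, which blocks CDK4 and CDK6, had 53.2 ± 0.547 CPM with miR-885-5p and 30.9 ± 1.98 CPM in Control (log2 fold change 0.78). CDKN1B, the gene of the SKP2 substrate p27, rose by 0.39 and CDKN2C, the gene of p18, fell by 0.32 on the log2 scale.

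Of the 10 pocket protein and E2F genes, 4 were lower and 2 higher (median 0.07). E2F2 fell to 7.40 ± 0.727 CPM with miR-885-5p, against 23.7 ± 1.37 CPM in Control, and E2F1 to 113 ± 1.96 CPM, against 180 ± 10.7 CPM in Control. Both are known as activators of S-phase genes. E2F5, a repressor, rose by 0.65 and RBL2, a pocket protein gene, by 0.51 on the log2 scale, while the related pocket protein gene RBL1 fell by 0.49 and the E2F partner gene TFDP1 by 0.22. The activator E2F3 (log2 fold change 0.06, edgeR adjusted p = 0.381) and the repressor E2F4 (0.09, adjusted p = 0.181) did not pass. RB1, the main substrate of CDK4 and CDK6, had 50.9 CPM with miR-885-5p and 48.0 CPM in Control and did not pass (edgeR adjusted p = 0.203). RBL1, TFDP1, E2F3, E2F4 and RB1 were named after their values were seen.

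Among 8 genes for CDK activation and inhibition (the CDK-activating kinase, CDC25 phosphatases, WEE1, PKMYT1 and the kinase chaperone CDC37), 3 were lower and 1 higher (median -0.20). PKMYT1, a kinase that inhibits CDK1, fell to 46.0 ± 1.74 CPM with miR-885-5p, against 94.2 ± 3.54 CPM in Control (log2 fold change -1.03). CDC25C, a phosphatase of CDK1, fell by 0.46. CDK7, the catalytic subunit of the CDK-activating kinase, rose to 86.2 ± 3.62 CPM with miR-885-5p, against 59.6 ± 1.43 CPM in Control. Of the other subunits of that kinase, the cyclin CCNH fell to 34.6 ± 3.16 CPM with miR-885-5p, against 46.6 ± 3.64 CPM in Control, and MNAT1 had a log2 fold change of -0.21 (edgeR adjusted p = 0.0902). CCNH and MNAT1 were named after their values were seen.

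Of 11 genes of the ubiquitin ligases and kinases that govern the turnover of cyclins, CDC25A and SKP2, 5 were lower and 4 higher (median 0.00). CHEK1, a checkpoint kinase that marks CDC25A for destruction, fell by 0.66 and RBX1, the RING subunit of the SKP2 ligase, by 0.30. On the other side BTRC, the ligase receptor for CDC25A, rose by 0.31, GSK3B, which phosphorylates cyclin D1 for export and degradation, by 0.26, FBXO31 by 0.23 and AMBRA1, a receptor for D-type cyclins, by 0.14. The calls of AMBRA1 (edgeR adjusted p = 0.0454) and FBXO31 (0.0205) were weak. The AMBRA1 call ended without any 1 library other than miR-885-5p library 2 (adjusted p from 0.0586 to 0.164), with DESeq2 (0.0598) and with the replicate block (0.103). The FBXO31 call ended without miR-885-5p library 2 (adjusted p = 0.0892) or 3 (0.0539) and without Control library 3 (0.0518).

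Of 7 tested genes for other cyclins and CDKs (with CKS2, which is neither), 6 were lower and none higher (median -0.23). The number lower was 5 under upper-quartile and 4 under total-count scaling. Cyclin A2 (CCNA2), the next partner of CDK2, had 84.2 ± 1.42 CPM with miR-885-5p and 126 ± 2.37 CPM in Control (log2 fold change -0.58), while CCNF and CCNB2 fell by 0.45 and 0.31. All 13 S-phase entry genes were lower, against 26.5% of all genes (list median -0.92, smallest change -0.36). RRM2, CDC6 and MCM2 were at -0.97, -0.93 and -0.89. The S-phase list, too, was chosen with earlier results of these data known, so it is no independent yardstick for the members. CDK6, CCNE2, CDC25A, CDK2 and CCND3 lay within the range of the S-phase entry genes, while SKP2, CCNE1, CKS1B, CDK4 and CCND1 had smaller changes.

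**Figure D5:**
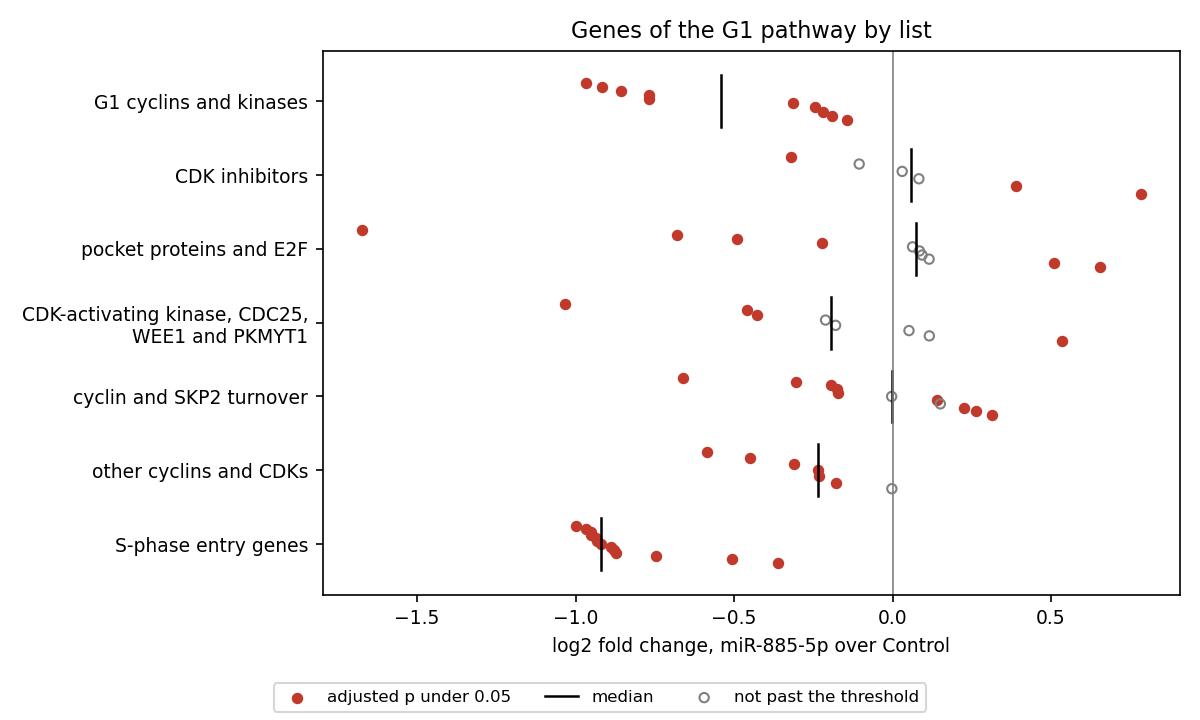
Log2 fold change, miR-885-5p over Control (horizontal axis), of each tested gene in the 7 lists; filled red points passed an adjusted p of 0.05 in edgeR, open grey points did not, and the black line is the list median. The members (median -0.54), other cyclins and CDKs (-0.23) and S-phase entry genes (-0.92) lie to the left of 0, and the CDK inhibitors and pocket proteins run both ways.

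The genes whose log2 CPM over the 6 libraries ran most like the mean standardised profile of the 10 members were PSRC1, LMNB1, UHRF1, TOE1 and AIF1L, with Pearson r from 0.9987 to 0.9998. With only 6 libraries in 2 groups such values are common, and 307 of 10687 named genes with a mean of at least 5 CPM had r above 0.99. LMNB1 had 98.9, 105 and 106 CPM with miR-885-5p, against 186, 181 and 194 CPM in Control.

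Total counts ran from 46382314 to 56409821 per miR-885-5p library and from 48327113 to 49694754 per Control library. The first principal component (66.0% of the variance) parted the groups, and Control library 3 stood apart on the second. Among the cell type markers, 3 of 5 epithelial ones were analysed (KRT8, KRT18 and KRT19). They summed to 2811 to 2907 CPM with miR-885-5p and 3342 to 3440 CPM in Control. KRT8 and KRT19 were lower past the threshold, and KRT18 did not pass (log2 fold change -0.08, edgeR adjusted p = 0.252). Of 6 hepatocyte markers only SERPINA1 was analysed here, at 8.41 CPM with miR-885-5p and 8.86 CPM in Control. The 3 of 5 fibroblast markers that were analysed (LUM, COL1A1 and PDGFRB) summed to 28.0 to 28.9 CPM with miR-885-5p and 15.7 to 18.2 CPM in Control. PDGFRB had 18.4 CPM with miR-885-5p and 8.96 CPM in Control, and LUM 4.63 and 2.86 CPM. COL1A1 did not pass (log2 fold change 0.16, edgeR adjusted p = 0.600). The part of these 3 markers in the results was not tested. The endothelial markers analysed (PECAM1 and KDR, 2 of 4) summed to 2.50 to 2.78 CPM with miR-885-5p and 1.42 to 2.08 CPM in Control. Of 5 leukocyte markers only CD68 was analysed. It lay from 125 to 128 CPM with miR-885-5p and from 116 to 138 CPM in Control.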

How the data were processed

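RNA-seq libraries of JHH-4 cells were built with an Illumina NEBNext kit from total RNA, per the labels' protocols. The build listed in the submitters' processing notes is GRCh38. The tools listed there, with no roles, are DESeq2 1.38.3, StringTie 2.2.1 and HISAT2 2.0.4. The counter, annotation and strand setting are not given. Per the file headers, the authors deposited a whole-number count, not normalized, and an FPKM value per gene and library, and, for each gene, the log2 fold change and p-value of an unnamed test. The main test was edgeR 4.0.16, run under R 4.3.3 (TMM, filterByExpr, which removed 0 of 14034 rows, quasi-likelihood F test, two-sided), with Benjamini-Hochberg adjustment over all rows and a threshold of 0.05. SE is the absolute log2 fold change over the square root of F, and the fit was tested on simulated data. FPKM served for levels between genes and, chosen after seeing the data, for an alternative in limma 3.58.1 with a pseudocount of 0.1. DESeq2 1.42.0, limma-voom, other scalings and filters, the replicate block and leaving out each library were also tried. Groups came from the titles. Loci, UTRs and exonic lengths came from GENCODE 29. The members and lists were chosen with earlier results of these data known. Named were the members, per list the 3 genes with the smallest adjusted p and those called against the majority, and 5 genes of like profile.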

Additional observations from a re-analysis of the deposited data

How the results depend on the processing

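The fall of CDK6, CDK2, CDC25A, CCND3, CCNE2, CCND1, SKP2 and CKS1B held in 15 of 15 alternatives that tested the counts against no change (DESeq2, limma-voom, 3 scalings, 2 filters, named genes alone, the replicate block and 6 fits without 1 library). CDK4 lost its call in 2 of these and CCNE1 in 9. The alternative without a filter was the main fit itself, because filterByExpr removed 0 rows, so its result was fixed in advance. Without 1 library each, the number of members called lower ran from 8 to 10. It was 4 in the test against a 1.5-fold change and 6 on FPKM, and the cause of the lower count on FPKM was not tested. On FPKM, the count of all genes lower was 2679 and of all genes higher 3777. The test against 1.5-fold called 410 genes lower and 493 higher in all. In that test CDK inhibitors had 0 lower and 1 higher, and pocket proteins and E2F 1 lower and 0 higher. CDK activation and inhibition genes had 1 lower and 0 higher, turnover genes 0 lower and 0 higher, and other cyclins and CDKs 0 lower. Of 13 S-phase entry genes, 11 were lower in the same test. CDK activation and inhibition genes had 2 higher under upper-quartile and 2 under total-count scaling, which also gave 4 higher pocket protein and E2F genes. Without 1 library each, 1 to 2 CDK inhibitors were lower and 2 to 4 turnover genes higher. Deviations of same-numbered libraries from their group means correlated at r = -0.18, -0.06 and -0.15. Such deviations sum to 0 within each group, so these values cannot decide whether the numbers pair libraries. With the replicate block 9 members were called lower. By counts per exonic length the shares of CDK6, CCND1 and CCNE1 differed by -11.3, 2.71 and 8.36 percentage points, in the same directions. The low counts of CCNE2 limit its precision.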
